A study of Homo sapiens with 12 samples.

Results

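U251 cells are a long-established line from a human glioblastoma. The cells described here were transfected with the control siRNA (siNC), which the study used as its non-targeting reference, and 48 h later were either left unstimulated or given 100 U/ml IFNγ for 24 h. The cells carried no engineered change (genotype WT in the labels), and the unstimulated cells had received the same siRNA, so siRNA transfection was shared by both groups. These conditions were represented by 4 of the 12 libraries of the series, 2 unstimulated and 2 stimulated, and all 4 were used. The other 8 libraries came from U251 cells transfected with siPDL1-1 or siPDL1-2, 2 siRNAs against PD-L1 that the labels list as PD-L1 knockdown, again without and with IFNγ. Each group held 2 libraries of poly(A)-selected RNA, which the study describes as coming from 2 independent experiments with a single cell line. Of 45416 genes in the deposited table, 17982 had enough reads to be tested.

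IFNγ is a cytokine made by activated T cells and NK cells. It binds a receptor of IFNGR1 and IFNGR2 chains, whose kinases JAK1 and JAK2 start the JAK-STAT route to genes with GAS sites. The route induces IRF1 and CIITA, which then act on ISRE sites and on the MHC class II promoters. In tumor cells the response raises antigen presentation and T cell-attracting chemokines, and also molecules that restrain T cells, such as PD-L1 (*CD274*) and IDO1.

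The siNC libraries held 19945619 and 38704685 counted reads without IFNγ and 55657393 and 50017519 with IFNγ, so the stimulated group was the more deeply sequenced. Values are normalized CPM as deposited, reads of a gene scaled to the size of its library. A log2 fold change is the difference of log2(CPM + 1) between the group means, given ± its standard error (SE). This scale understates the change of genes with little or no unstimulated signal. A gene was called at FDR < 0.01 and a fold change above 1.5, and "rose" and "fell" are used for called genes only. The replicates of a group lay close together, with a median absolute log2 difference of 0.08 between the unstimulated and 0.07 between the stimulated libraries. Glial markers fitted the label in part. Of the 14 glioma markers, *VIM* (3356 and 3460.3 CPM unstimulated), *CD44* (623 and 580.2) and *SOX2* (108 and 119) were well detected, whereas *GFAP* stood at 4.21 and 4.48 CPM and *AQP4* and *OLIG2* stayed under 1 CPM. No read of *CD3D*, *CD3E*, *CD2* or *MS4A1* was found, and *PTPRC*, the pan-leukocyte marker, had at most 0.166 CPM in any of the 4 libraries. Of the 11 lymphoid markers, 5 had no read and 10 stayed under 1 CPM. Their summed level was 4.95 and 4.15 CPM before and 3.80 and 3.88 CPM after IFNγ. The oligodendrocyte list summed to 124 and 122 CPM before and 137 and 132 CPM after IFNγ. Of its 5 members, 4 stayed under 1 CPM. Of the marker lists of other cells, the summed levels of the myeloid list (29.1 and 29.9 CPM before, 42.8 and 42.4 CPM after IFNγ, with no member called, or 1 higher with the GC and length trends removed), of the neuronal list (18.4 and 19.2 CPM before, 29.9 and 28.3 CPM after IFNγ, with *GAD1* called higher) and of the endothelial list (9.40 and 11.0 CPM before, 5.94 and 6.06 CPM after, with *VWF* called lower) moved with the treatment, and their part in the results was not tested. Most of the myeloid sum was *CD68*, at 28.4 CPM on average before and 41.4 CPM after IFNγ, and 11 of the 12 myeloid markers stayed under 1 CPM. Much of the neuronal sum was *GAD1* (9.13 and 19.6 CPM). Most of the endothelial sum was *VWF* (4.25 and 1.67 CPM) and *KDR* (5.29 and 3.92 CPM). These sums therefore do not describe whole lists. In a bulk sample, more cells responding and more RNA per cell cannot be told apart.

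IFNγ changed 1460 genes in siNC cells, 8.12% of those tested. More genes rose than fell: 1200 rose (6.67%) and 260 fell (1.45%). Of the genes that rose, 416 did so more than 2-fold, 131 more than 4-fold and 30 more than 16-fold. Decreases were smaller, with 37 genes falling more than 2-fold and 2 more than 4-fold. For every called gene, the lowest library of the higher group lay above the highest of the lower group. With 2 libraries a side, such separation was also common without a call. It held for 29 of 30 G2/M genes and 11 of 12 reference genes, none of which was called. The genes called higher made up 4.12% and 4.08% of the summed CPM before IFNγ and 9.14% and 9.29% after it. Protein-coding genes were called higher in 7.58% of 14483 cases and lncRNA genes in 2.83% of 3389 cases. Calls are harder to reach at low levels on the log2(CPM + 1) scale, and the levels of these gene classes were not compared. A group of 24 called genes went from under 1 CPM to at least 10 CPM on average.

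**Figure D1:**
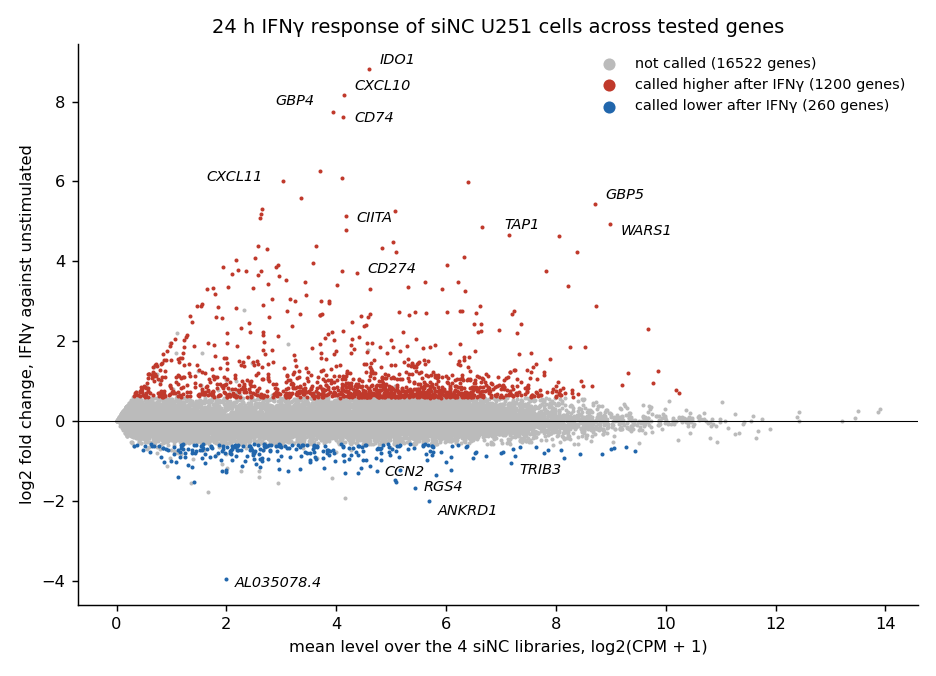
Each point is 1 of 17982 tested genes, with its mean level over the 4 siNC libraries on the x axis, log2(CPM + 1), and its log2 fold change after IFNγ on the y axis. Red marks the 1200 genes called higher and blue the 260 called lower; the increases reach 8.80 (*IDO1*) and, apart from *AL035078.4* at -3.97, the decreases stop at -2.001 (*ANKRD1*).

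On the log2(CPM + 1) scale the largest increase was that of *IDO1*, the enzyme that opens tryptophan breakdown. It went from 0.196 and 0.101 CPM to 507.5 and 516.4 CPM (8.80 ± 0.07, FDR 6.3e-20). *CXCL10*, a chemokine that draws CXCR3-bearing T cells, had 0 and 3 reads in the unstimulated libraries and 285 and 309 CPM after IFNγ. Its ratio of reads per depth was 5923, with an exact 95% interval of 2026 to 28721.5 that covers counting error only. *GBP4*, a guanylate-binding protein, had 1 and 2 reads unstimulated and 221 and 227 CPM after IFNγ (ratio 4472, interval 1530.0 to 21686). Each of these genes was therefore near the detection limit in unstimulated cells and well detected in both stimulated libraries. *CD74*, the invariant chain that escorts MHC class II, went from 0.196 and 0.304 CPM to 253 and 237 CPM (7.62 ± 0.08). *PLAAT4*, a phospholipase of the HRASLS family, went from 0.441 and 0.531 CPM to 114 and 112 CPM (6.26 ± 0.10). Among genes already expressed without IFNγ, *WARS1*, the cytosolic tryptophanyl-tRNA synthetase, went from 89.9 and 91.2 CPM to 2797 and 2825 CPM (4.94 ± 0.04). *GBP5* went from 61.4 and 63.7 CPM to 2705 and 2778 CPM (5.43 ± 0.04).

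The smaller changes moved with the base composition of the genes. Tested genes with at most 38% GC in their transcript (1470 genes) had a median log2 fold change of 0.39 and 26.7% of them were called higher, whereas those above 62% GC (1695 genes) had a median of -0.20, with 1.77% called higher and 3.07% called lower. The median GC content was 40.3% among genes that rose, 55.7% among genes that fell and 49.1% among the rest. The siNC replicates themselves differed with GC: in the class above 62% GC the median log2 difference between replicates was 0.19 in stimulated cells and -0.09 in unstimulated cells. When the trends with GC content and length were removed from each library, 731 genes rose and 247 fell, and the median change lay between -0.02 and 0.00 in every GC class. Of the 131 genes that rose more than 4-fold, 130 were called again, against 285 of the 784 that rose by up to 2-fold. Among genes that fell, 37 of the 37 with more than a 2-fold decrease and 135 of the other 223 were called again. Whether base composition of the libraries or the biology of these genes produced the trend was not tested. Where the count of a gene list changed after this removal, it is given beside the list or the genes that lost their call are named.

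**Figure D2:**
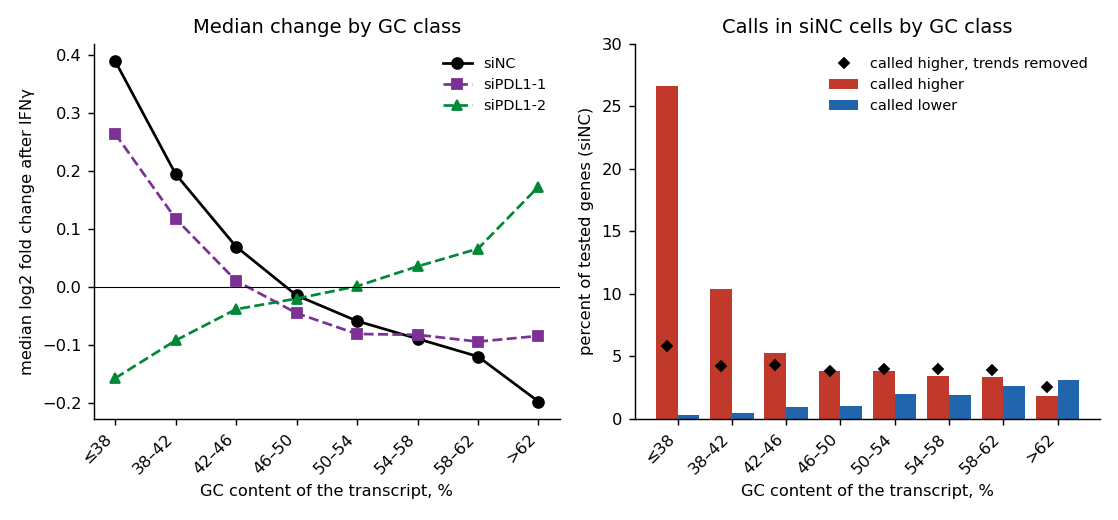
The left panel shows the median log2 fold change after IFNγ by class of transcript GC content (%) for siNC, siPDL1-1 and siPDL1-2 cells; the siNC medians run from 0.39 to -0.20, and the siPDL1-2 medians run the other way, from -0.16 to 0.17. The right panel shows the percent of tested genes called higher (red) and lower (blue) in siNC cells in each class, and diamonds show the percent called higher after the GC and length trends were removed.

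Promoter letters of the induced genes were read from RefSeq (GRCh38.p14) to show what the responding genes carry upstream. Windows of 250 bases before the start were searched on both strands for the 9-letter motifs TTCNNNGAA (GAS, the IFNγ-activated site) and GAAANNGAA (an ISRE core, bound by IRFs and by the complex that holds IRF9). Windows of 12208 tested genes were found in the table, several genes having more than 1 start. GAS letters were present in 6.57% and ISRE letters in 6.88% of all 35116 windows of the table, and in 5.32% and 5.17% of the 16079 windows of genes that were not called. Among genes that rose by up to 2-fold the shares were 6.43% and 8.25% (933 windows). They were 8.07% and 14.6% among genes that rose 2- to 4-fold (322 windows), 12.9% and 33.9% at 4- to 8-fold (62 windows), and 23.6% and 43.6% above 8-fold (55 windows). Genes that fell had 4.74% and 4.35% (253 windows). The share of windows with either motif was thus higher in each larger class of increase. Windows of genes above 8-fold were also less GC-rich, with a median of 52.4% GC against 64.0% in windows of genes not called, so the share that composition alone would give differs between the classes and was not tested. Matches of these letters are descriptions and not bound sites.

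The promoters of 3 genes that rose are shown for 250 bases up to the start, 5′ to 3′ on the strand of the gene, with the motifs in capitals. *IRF1* (minus strand, chr5:132490774-132491023) held a GAS match starting 124 bases before the start, *CXCL10* (minus strand, chr4:76023498-76023747) an ISRE match at 221 bases, and *CD274* (plus strand, chr9:5450292-5450541) a pair of overlapping ISRE matches at 207 and 201 bases and a GAS match at 125 bases.
IRF1: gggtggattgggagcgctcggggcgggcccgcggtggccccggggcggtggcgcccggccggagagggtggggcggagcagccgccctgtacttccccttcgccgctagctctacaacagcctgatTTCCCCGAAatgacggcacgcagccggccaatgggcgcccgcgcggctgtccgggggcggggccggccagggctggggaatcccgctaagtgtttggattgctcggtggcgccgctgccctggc
CXCL10: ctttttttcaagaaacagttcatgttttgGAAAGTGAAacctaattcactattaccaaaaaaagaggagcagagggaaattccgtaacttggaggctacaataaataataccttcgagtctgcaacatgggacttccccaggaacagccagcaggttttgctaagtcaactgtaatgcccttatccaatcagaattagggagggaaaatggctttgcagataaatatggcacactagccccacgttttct
CD274: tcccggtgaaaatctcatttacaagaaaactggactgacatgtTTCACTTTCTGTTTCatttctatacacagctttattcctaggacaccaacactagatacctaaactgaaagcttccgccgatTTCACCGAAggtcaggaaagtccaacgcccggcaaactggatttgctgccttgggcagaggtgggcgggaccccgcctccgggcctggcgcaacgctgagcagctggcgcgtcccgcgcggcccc

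Shorter stretches around the matches of 7 other genes that rose are shown to compare the letters, again with the motifs in capitals and on the strand of the gene. They are the ISRE matches of *TAP1* (minus, chr6:32853813-32853847), *B2M* (plus, chr15:44711363-44711397), *GBP1* (minus, chr1:89065316-89065344), *CXCL9* (minus, chr4:76007662-76007690) and *SOCS1* (minus, chr16:11256299-11256327), and the GAS matches of *ICAM1* (plus, chr19:10271035-10271063) and *IRF9* (plus, chr14:24161192-24161220).
TAP1: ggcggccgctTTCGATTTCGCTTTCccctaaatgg
B2M: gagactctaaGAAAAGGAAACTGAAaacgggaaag
GBP1: acgaagtactTTCAGTTTCatattactct
CXCL9: ccatttatgtGAAATGGAAataaaaacat
SOCS1: cgccaccgcgGAAAGAGAAaccaaaagtg
ICAM1: ggcgcgaggtTTCCGGGAAagcagcaccg
IRF9: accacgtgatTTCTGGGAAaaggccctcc
In *TAP1* and *B2M* the capitals mark 2 overlapping ISRE matches. *JAK2*, *GBP4* and *PSMB9* rose as well and had neither motif in their windows, which says only that these letters were not there.

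In the signalling pathway, 6 of 12 genes rose and none fell, with a median log2 fold change of 0.57 against 0.00 over all genes tested. The kinase *JAK2* went from 13.95 and 15.5 CPM to 61.3 and 65.1 CPM (2.03 ± 0.07) and *STAT2*, the partner of IRF9, from 53.7 and 49.8 to 134 and 132 CPM (1.35 ± 0.05). Groups did not overlap for either gene, as was so for every called gene. Of the inhibitors, *SOCS1*, *SOCS3* and *USP18* rose, whereas *PIAS1*, at 30.9 CPM on average before and 39.3 CPM after IFNγ, stayed below the fold threshold. *SOCS1*, which blocks JAK kinases, went from 0.539 and 0.304 CPM to 8.18 and 7.14 CPM (2.61 ± 0.12), *SOCS3* gained 0.81 ± 0.06 and *USP18*, which removes ISG15 and dampens type I IFN signalling, gained 1.16 ± 0.07. The receptor chains were not called, with log2 fold changes of 0.17 ± 0.06 for *IFNGR1* and 0.18 ± 0.06 for *IFNGR2*, nor was the kinase *JAK1* (0.05 ± 0.04). The pathway's upper steps were therefore measured as not called at the receptor and at JAK1 and as increased at JAK2, STAT2, SOCS1, SOCS3 and USP18.

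Of the 10 tested interferon regulatory factors and co-activators, 7 rose. *CIITA*, the co-activator required for MHC class II transcription, went from 1.76 and 2.38 CPM to 108 and 103 CPM (5.13 ± 0.09). *IRF1* went from 19.5 and 16.2 CPM to 549 and 531 CPM (4.85 ± 0.07), and *NLRC5*, the corresponding co-activator of MHC class I, from 17.9 and 19.1 to 194 and 186 CPM (3.30 ± 0.07). These 3 genes were separated between the groups in every library, as was every called gene. *BATF2* (4.09 ± 0.10), *ETV7* (3.78 ± 0.12), *IRF9* (1.87 ± 0.06) and *IRF2* (1.42 ± 0.09) also rose. *IRF7*, a driver of type I IFN production, had 3.18 and 4.20 CPM unstimulated and 3.37 and 2.20 CPM after IFNγ, so its libraries overlapped (-0.32 ± 0.21). *IRF5* was not called (-0.28 ± 0.09), nor was *IRF3* (0.54 ± 0.06), which was called with the GC and length trends removed (0.66). The antisense neighbor *IRF1-AS1* went from 4.21 to 31.9 CPM on average, and reads of it and of *IRF1* were not separated by strand.

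**Figure D3:**
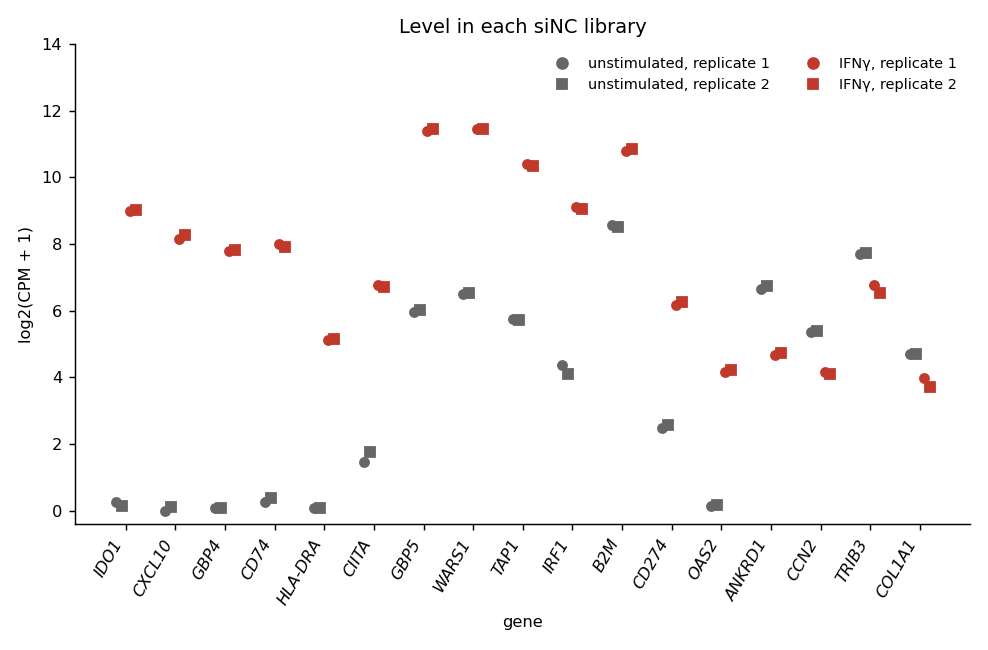
Levels of 17 genes in each of the 4 siNC libraries, log2(CPM + 1) on the y axis, with grey symbols for unstimulated and red for IFNγ-stimulated libraries and circles and squares for replicates 1 and 2. The 2 replicates nearly coincide for each gene, and for all 17 genes the stimulated libraries lie wholly above the unstimulated ones or, for *ANKRD1*, *CCN2*, *TRIB3* and *COL1A1*, wholly below them.

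The guanylate-binding proteins (GBPs) are large GTPases that attack the vacuoles of intracellular microbes. All 6 tested members rose, with a median of 5.04, and *GBP7*, with 0 unstimulated and 14 stimulated reads, was not tested. *GBP1* went from 10.2 and 9.16 CPM to 656 and 688 CPM (5.98 ± 0.06), *GBP2* from 26.6 and 28.1 to 697 and 723 CPM (4.65 ± 0.04) and *GBP3* from 16.5 and 15.2 to 249 and 253 CPM (3.90 ± 0.06). *GBP6* stayed low, at 0.880 and 0.623 CPM after IFNγ (0.75 ± 0.15). The GBPs are similar in sequence, so reads may have been split among them.

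Antigen presentation on MHC class I rose at most steps of its route. Of 15 tested genes, 12 rose, none fell and the median was 1.92. The transporter subunits *TAP1* and *TAP2* bring peptides into the endoplasmic reticulum. *TAP1* went from 53.1 and 51.7 CPM to 1358 and 1295 CPM (4.64 ± 0.05), and *TAP2* from 74.9 and 65.9 to 388 and 379.8 CPM (2.43 ± 0.05). Among heavy chains, *HLA-B* gained 3.76 ± 0.05, *HLA-E* 2.88 ± 0.04, *HLA-F* 2.73 ± 0.07, and *HLA-C* 1.86 ± 0.06. Reads of these heavy chains can be exchanged between loci, so their separate values are uncertain. The light chain *B2M* went from 378 and 363 CPM to 1782 and 1858 CPM (2.29 ± 0.04). The trimming peptidases *ERAP1* (1.92 ± 0.05) and *ERAP2* (2.43 ± 0.05) and the tapasin gene *TAPBP* (1.41 ± 0.05) rose as well. The general chaperones of the loading complex were not called, with 0.38 ± 0.04 for *CANX*, 0.38 ± 0.04 for *PDIA3* and 0.08 ± 0.04 for *CALR*.

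The proteasome supplies the peptides, and its inducible and constitutive subunits moved by unequal amounts. All 5 immunoproteasome genes rose (median 2.71). *PSMB9* went from 4.46 and 4.43 CPM to 205 and 212 CPM (5.27 ± 0.07), *PSMB10* gained 3.26 ± 0.09 and *PSMB8* 2.71 ± 0.06. The activator caps *PSME2* (2.21 ± 0.05) and *PSME1* (1.71 ± 0.04) also rose. The 3 constitutive catalytic subunits that these replace were not called, namely *PSMB5* (0.00 ± 0.05), *PSMB6* (-0.01 ± 0.05) and *PSMB7* (0.16 ± 0.05). Of all 14 constitutive genes, 5 rose by less than 2-fold, all of the alpha ring, with the highest at *PSMA3* (0.97 ± 0.05) and *PSMA4* (0.91 ± 0.04), and 3 of the 5 were called with the GC and length trends removed. *PSMB8*, *PSMB9* and *TAP1* overlap on the genome on opposite strands, and *PSMB8-AS1* lies across them, so their reads were not separated by strand.

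MHC class II presents to CD4+ T cells and is usually found on professional antigen-presenting cells. Of 15 tested genes of this route, 13 rose and the median was 3.05, and several of its chains started near 0 in these cells. *HLA-DRA*, the common alpha chain, had 1 and 2 reads unstimulated and 34.1 and 34.7 CPM after IFNγ (ratio 687, interval 235 to 3333). *HLA-DPA1* went from 0.881 and 1.09 CPM to 28.4 and 29.4 CPM (3.91 ± 0.09) and *HLA-DMB*, a chain of the peptide-exchange factor, from 0.245 and 0.380 to 25.8 and 27.1 CPM (4.39 ± 0.12). *HLA-DOA* had no unstimulated read and was at least 33.2-fold higher after IFNγ, against a floor of 3 reads over both unstimulated libraries. The lysosomal genes differed: the protease *CTSS* (3.64 ± 0.12) and the thiol reductase *IFI30* (2.76 ± 0.06) rose, whereas the proteases *CTSB* (-0.01 ± 0.03) and *CTSL* (0.09 ± 0.04) were not called. The DQ chains stayed low, with 1.48 and 1.39 CPM for *HLA-DQB1* and 9 and 6 reads for *HLA-DQA1*, which was not tested, after IFNγ. Values of *HLA-DRB1* (3.75 ± 0.14) and *HLA-DRB5* (1.45 ± 0.11) are uncertain, since these loci are close copies.

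Chemokines moved in both directions. Of 12 tested, 4 rose (5 with the GC and length trends removed) and 2 fell, and 7 of 19 listed genes had too few reads to be tested. The 3 CXCR3 ligands rose from nothing or nearly nothing. *CXCL11* had 0 and 1 reads unstimulated and 61.7 and 67.2 CPM after IFNγ (ratio 3855, interval 692 to 152280.0). *CXCL9* had no unstimulated read and 39.8 and 37.6 CPM, at least 775-fold higher against the floor of 3 reads. *CX3CL1*, the membrane-bound chemokine fractalkine, gained 0.63 ± 0.07. Both chemokines that fell are known to attract neutrophils. *CXCL8* went from 7.44 and 7.59 CPM to 3.20 and 2.80 CPM (-1.09 ± 0.15), and *CXCL3* from 4.70 and 4.71 to 2.55 and 1.87 CPM (-0.84 ± 0.14). *CCL2*, which attracts monocytes, was not called (0.23 ± 0.13). *ART3*, which overlaps *CXCL10* and *CXCL11* on the opposite strand, was at 2.74 CPM after IFNγ.

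Of 14 tested cytokine genes, 8 rose and 1 fell. *IL18BP*, the secreted antagonist of IL-18, went from 6.61 and 7.14 CPM to 152 and 139.9 CPM (4.22 ± 0.08), whereas *IL18* itself stood at 21.3 and 22.2 CPM before and 21.6 and 22.5 CPM after (0.02 ± 0.09). *IL15*, which sustains NK and memory T cells, gained 2.22 ± 0.11, *IL32* 2.14 ± 0.11, the death ligand *TNFSF10* 1.96 ± 0.07 and *CSF1*, the macrophage growth factor, 1.23 ± 0.05. *IL6* (0.72 ± 0.15) and *TNFSF13B* (0.82 ± 0.13) rose, and neither was called with the GC and length trends removed. *LIF*, a cytokine of the IL-6 family, fell from 22.5 and 25.5 CPM to 11.2 and 11.6 CPM (-1.01 ± 0.09). Of the adhesion genes, *VCAM1* went from 5.48 and 8.43 CPM to 74.8 and 77.5 CPM (3.30 ± 0.13), and *ICAM1*, near 0 without IFNγ, reached 2.08 and 1.37 CPM (1.28 ± 0.14).

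Of 15 tested checkpoint molecules and NK-cell ligands, 8 rose, 1 fell and the median was 1.39. *CD274*, which encodes PD-L1, went from 4.60 and 4.91 CPM to 71.2 and 76.0 CPM (3.70 ± 0.08, FDR 6.2e-15). *PDCD1LG2*, which encodes PD-L2, went from 1.37 and 1.57 CPM to 19.8 and 19.1 CPM (3.05 ± 0.10), and *TNFRSF14*, the ligand of BTLA, from 3.92 and 4.45 to 43.4 and 37.7 CPM (3.00 ± 0.11). All 3 genes were separated between groups, as was every called gene. *LGALS9* (2.03 ± 0.08), the death receptor *FAS* (1.76 ± 0.09), the phagocytosis inhibitor *CD47* (1.70 ± 0.05) and the NKG2D ligand *MICB* (1.41 ± 0.06) rose. *CD40* had 0 and 2 reads unstimulated and 1.74 and 1.62 CPM after IFNγ (ratio 50.4, interval 13.8 to 419.9). *VTCN1*, which encodes the inhibitory molecule B7-H4, was the member that fell, from 1.86 and 2.23 CPM to 0.524 and 0.436 CPM (-1.04 ± 0.14). *CD276* (-0.09 ± 0.05), *NECTIN2* (0.10 ± 0.05), *ULBP2* (0.04 ± 0.07) and *ULBP3* (0.03 ± 0.10) were not called, and *MICA*, the other MIC ligand, had -0.32 ± 0.05. *FAS* overlaps *ACTA2*, whose mean went from 7.38 to 23.1 CPM.

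In the list of tryptophan and immune-effector enzymes, 5 of 12 tested genes rose. Beside *IDO1* and *WARS1*, these were *GCH1*, the first enzyme of tetrahydrobiopterin synthesis (2.17 ± 0.12), *NOS2*, which makes nitric oxide and stayed low at 1.59 and 1.72 CPM (0.75 ± 0.13), and the kynurenine aminotransferase *KYAT3* (0.68 ± 0.06), which was not called with the GC and length trends removed. *TDO2*, the other tryptophan dioxygenase, had 7.00 and 6.25 CPM unstimulated and 7.28 and 7.74 CPM after IFNγ (0.16 ± 0.09). Of the other enzymes of the kynurenine route, *KYNU*, *KMO* and *QPRT* were not called, with -0.11 ± 0.10, 0.20 ± 0.13 and 0.13 ± 0.16.

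Genes better known from the type I IFN response also rose. Of 34 tested, 31 rose, none fell and the median was 2.19. *IFIT3* went from 2.69 and 2.23 CPM to 96.0 and 92.8 CPM (4.79 ± 0.07), *XAF1* from 1 and 0 reads to 36.1 and 36.5 CPM (ratio 2174, interval 389.9 to 85881), and *OAS2*, a sensor of double-stranded RNA, from 0.098 and 0.127 CPM to 16.9 and 17.7 CPM (4.04 ± 0.10). *SAMD9L* (4.48 ± 0.07), *IFIT2* (3.75 ± 0.06), *OASL* (3.67 ± 0.10), *IFI44L* (3.52 ± 0.09) and the tetherin gene *BST2* (3.48 ± 0.05) rose by over 8-fold. Of the type I IFN genes themselves, *IFNA1* had no read in the 4 libraries, and *IFNB1* had none without IFNγ and 2 reads in each stimulated library. *IFNG*, the gene of the type II IFN used as the stimulus, had no read either. *IFIT3* overlaps *LIPA*, whose mean went from 53.8 to 92.8 CPM, on the opposite strand.

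Antiviral restriction factors followed with 13 of 16 tested genes higher (median 1.06). *TRIM22* went from 5.04 and 5.72 CPM to 123 and 129.7 CPM (4.32 ± 0.09), the cytidine deaminase *APOBEC3G* gained 3.44 ± 0.09, the dNTP hydrolase *SAMHD1* 2.76 ± 0.05 and the RNA editor *ADAR* 0.95 ± 0.04. Of the genes of DNA sensing, *IFI16* gained 1.55 ± 0.04 and *STING1* was not called (0.16 ± 0.06). *CGAS* had 2 reads without and 3 with IFNγ, *AIM2* 2 and 92, and *ZBP1* 0 and 45. All 5 tested apolipoprotein L genes rose (median 4.39). *APOL1*, which forms ion channels that lyse trypanosomes, went from 0.979 and 1.16 CPM to 140.1 and 140.8 CPM (6.10 ± 0.07), and *APOL6* from 18.0 and 18.4 to 327 and 334 CPM (4.11 ± 0.06). *APOL3* had 0.098 and 1.01 CPM in the unstimulated libraries, a wide spread at that level, and 69.9 and 70.8 CPM after IFNγ (5.59 ± 0.25). All 5 genes of the ADP-ribosyltransferase list rose (median 2.42), with *PARP14* going from 91.9 and 92.3 CPM to 958 and 966 CPM (3.37 ± 0.04) and the partners *PARP9* and *DTX3L* gaining 2.75 ± 0.05 and 2.42 ± 0.05.

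Complement genes rose in 9 of 14 cases (median 1.63). The C1 inhibitor gene *SERPING1* went from 2.35 and 1.72 CPM to 46.7 and 44.7 CPM (3.95 ± 0.09), and *CFB* of the alternative pathway from 2.60 and 2.76 to 31.9 and 31.3 CPM (3.15 ± 0.08). The classical-pathway proteases *C1S* (2.75 ± 0.11) and *C1R* (2.37 ± 0.09) and the central component *C3* (0.88 ± 0.05) rose. Values of *C4A* (2.99 ± 0.11) and *C4B* (1.77 ± 0.16) are uncertain, as these genes are near-identical. The membrane regulators *CD46*, *CD55* and *CD59* were not called (0.41 ± 0.05, 0.12 ± 0.08 and -0.16 ± 0.04). In the cell-death list, 8 of 18 tested genes rose (median 0.53), led by the inflammatory caspases *CASP1* (2.67 ± 0.09) and *CASP4* (1.53 ± 0.06), with the pore protein *GSDMD* (0.91 ± 0.08) and the necroptosis effector *MLKL* (1.05 ± 0.09). *RIPK3*, the kinase upstream of MLKL, had 1 read in the 4 libraries. *CASP8* (0.65 ± 0.08) rose and was not called with the GC and length trends removed. Of 15 NF-κB feedback genes, *BIRC3* (1.08 ± 0.13) and *NFKBIZ* (0.85 ± 0.09) rose, beside 6.67% of all tested genes, and the median was 0.07.

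**Figure D4:**
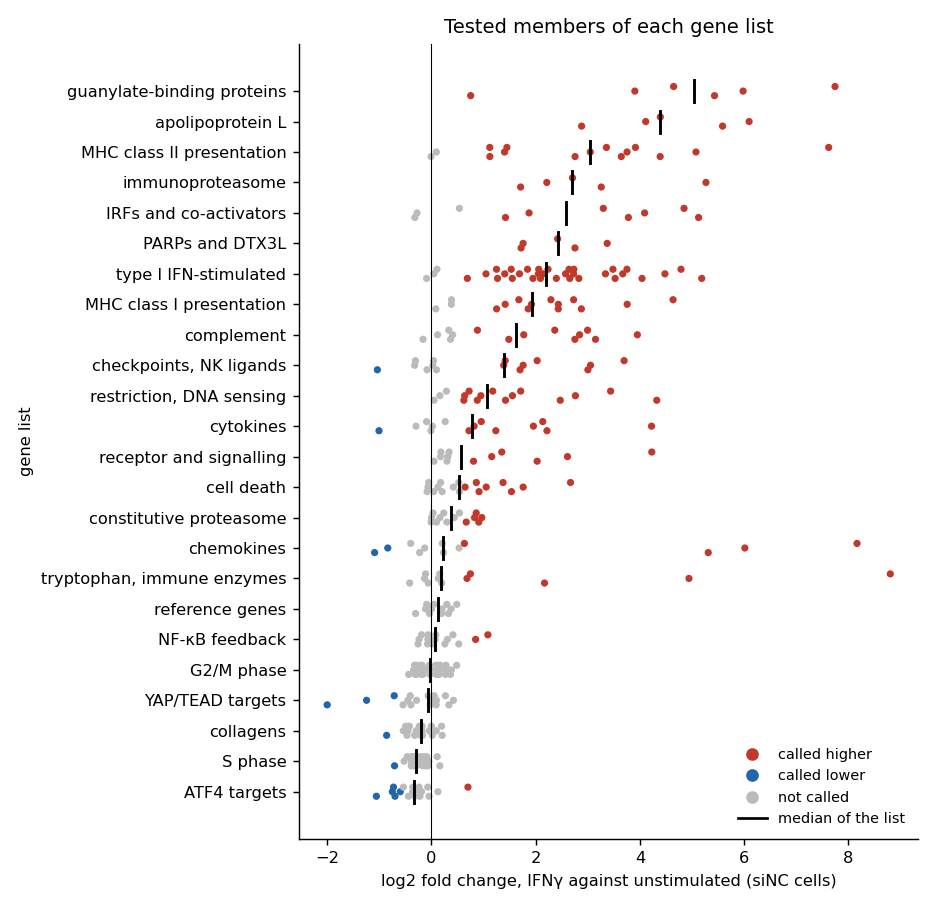
Each point is a tested member of the list named on the y axis, placed at its log2 fold change after IFNγ in siNC cells, red for called higher, blue for called lower and grey for not called; black bars are list medians. The guanylate-binding and apolipoprotein L lists have the highest medians (5.04 and 4.39) with every tested member called higher, and the ATF4 list has the lowest (-0.34).

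The genes that fell most included targets of the YAP and TEAD transcription factors. *ANKRD1*, a transcript widely used as a readout of YAP, went from 99.4 and 105.7 CPM to 24.4 and 25.3 CPM (-2.001 ± 0.06, FDR 5.1e-13). *CCN2*, which encodes the matricellular growth factor CTGF, went from 40.2 and 40.7 CPM to 16.7 and 16.2 CPM (-1.25 ± 0.07), and *CCN1* from 189.7 and 190.4 to 114 and 116 CPM (-0.72 ± 0.04). The other 14 genes of the list were not called, with a median over all 17 of -0.06, so the decrease was not shared by most of the list. *RGS4*, an inhibitor of G protein signalling, went from 73.2 and 78.3 CPM to 22.6 and 23.6 CPM (-1.67 ± 0.08). The protease *ADAMTS15* (-1.53 ± 0.10), *LMCD1*, a LIM-domain cofactor (-1.48 ± 0.06), and the adhesion receptor *ADGRG1* (-1.35 ± 0.07) also fell.

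The largest fitted decrease belonged to *AL035078.4*, which had 15.1 and 14.2 CPM unstimulated and no read in either stimulated library, at least 492-fold lower against a floor of 3 reads over both stimulated libraries. It overlaps *RCN1* on the same strand, and *RCN1* went from 210.1 to 334 CPM on average. In siPDL1-2 cells *AL035078.4* had 0.120 and 0 CPM already without IFNγ. How reads were shared between these overlapping annotations was not tested.

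Of 19 collagen genes, *COL1A1* fell, from 25.2 and 25.1 CPM to 14.9 and 12.0 CPM (-0.86 ± 0.09), 15 of 19 log2 fold changes were negative and the median was -0.21. Of 26 tested integrins and matrix genes 2 rose and 2 fell, or 1 each way with the GC and length trends removed. The shares over all tested genes were 6.67% called higher and 1.45% called lower. The laminin receptor chain *ITGA6* rose from 121 and 120.5 CPM to 280.3 and 291 CPM (1.23 ± 0.04), and the thrombospondin genes *THBS1* (-0.77 ± 0.04) and *THBS2* (-0.62 ± 0.07) fell, the last not called with the trends removed. Of 18 targets of ATF4, the transcription factor of the amino-acid and unfolded-protein responses, 5 fell and 1 rose (median -0.34). *TRIB3*, a pseudokinase, went from 205 and 210.4 CPM to 108 and 91.8 CPM (-1.06 ± 0.07). The glutathione-degrading enzyme *CHAC1* (-0.75 ± 0.11), the amino-acid transporter chains *SLC3A2* (-0.73 ± 0.05) and *SLC7A5* (-0.70 ± 0.05) and the stress regulator *SESN2* (-0.60 ± 0.07) fell, and *ATF3* rose (0.70 ± 0.08). With the GC and length trends removed, 3 of the 5 decreases were called (*TRIB3*, *CHAC1* and *SLC3A2*).

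Proliferation genes moved little. Among 25 S-phase genes, 23 log2 fold changes were negative with a median of -0.29. Only *E2F1*, which drives entry into S phase, was called (-0.71 ± 0.06), a call not made with the GC and length trends removed. None of 30 G2/M genes was called, with *MKI67* at 864 and 886 CPM before and 709.9 and 705 CPM after IFNγ (-0.31 ± 0.05). Of 12 tested G1 regulators 3 rose (2 with the trends removed). *CDKN1B*, which encodes p27, rose by 0.65 ± 0.08, and *CDKN1A*, which encodes p21, was not called (-0.10 ± 0.06). *CDKN2A*, *CDKN2B* and *CDKN2C* had no read in the 4 libraries. No gene of the glycolysis and hypoxia list was called (21 tested, median 0.08), nor any of the 12 reference genes (median 0.12), among which *GAPDH* had 0.29 ± 0.03 and *ACTB* -0.31 ± 0.04. In the oxidative phosphorylation list 1 of 22 genes rose (none with the trends removed), beside 6.67% of all tested genes. In the NRF2 list 2 of 14 rose (1 with the trends removed), among them *SOD2*, the mitochondrial superoxide dismutase, which went from 120.3 and 117 to 298 and 314 CPM (1.36 ± 0.04). Of the glioma markers, 2 rose, the growth factor receptor *PDGFRA* (1.09 ± 0.05) and *SOX2* (0.66 ± 0.08), and *GFAP* fell (-0.62 ± 0.10), a call not made with the trends removed.

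Some responding genes lie next to each other on the genome (GRCh38 coordinates of the deposited table). There were 13 stretches of at least 4 consecutive tested genes that all rose, and in 8 of them every gene was also called with the GC and length trends removed. The longest, chr6:32812763-32969094 in the MHC, held 9 genes from *HLA-DOB* to *HLA-DMA*, including *TAP1*, *TAP2*, *PSMB8* and *PSMB9*, with log2 fold changes from 1.12 to 5.27. A stretch of 8 genes at chr1:88935773-89388160 held the GBPs with their neighbors *KYAT3* and *RBMXL1*, the last named because it lies between them (0.68 to 7.74). The CXCR3 ligands lay at chr4:76001275-76112802, 4 apolipoprotein L genes at chr22:36140330-36267530 and 4 APOBEC3 genes at chr22:39014257-39087743. Since reads were counted without strand, overlapping neighbors in these stretches are not independent measurements.

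The response of siNC cells was finally set beside that of the cells given the siRNAs against PD-L1, which share no library with it. Of the 1200 genes that rose in siNC cells, 780 also rose in siPDL1-1 cells (65.0% of the siNC list and 77.8% of the 1003 that rose with siPDL1-1), and 458 in siPDL1-2 cells (38.2% of the siNC list and 70.4% of the 651 with siPDL1-2). The difference of the response itself was tested by the interaction term. Against siPDL1-1 it was called for 174 genes (0.968% of those tested), with a larger log2 fold change in siNC cells for 14 and a smaller one for 160 (9 and 154 by edgeR). Against siPDL1-2 it was called for 1370 genes (7.62%), 1040 larger and 330 smaller in siNC cells. The number of smaller responses was 622 without siNC IFNγ-stimulated replicate 1, 163 without stimulated replicate 2 and 168 without unstimulated replicate 2. The called genes of the second comparison had a median GC content of 38.5%, the GC trend of the response ran in opposite directions in siNC and siPDL1-2 cells, and 156 and 92 genes were called with the trends removed. For siPDL1-1 these numbers were 29 and 187.

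Genes of the type I IFN list accounted for many of the differences from siPDL1-1 cells. In siNC cells 29 of the 34 had a smaller response, and the list median was 2.19 in siNC, 4.50 in siPDL1-1 and 2.28 in siPDL1-2 cells. The quasi-likelihood test of edgeR on the reads called 21 of the 34 lower in siNC cells and none higher. *IFIT1* went from 9.69 and 8.55 CPM to 52.9 and 51.6 CPM in siNC cells, from 19.5 and 18.8 to 581 and 613 CPM in siPDL1-1 cells, and from 7.76 and 7.32 to 34.2 and 35.6 CPM in siPDL1-2 cells. For *IFIT1* the siPDL1-1 libraries were thus the highest both without and with IFNγ, with the wider gap after IFNγ. *MX2* reached 4.16 and 4.07 CPM in siNC cells and 144 and 138 CPM in siPDL1-1 cells. Its difference of log2 fold changes was -3.86 ± 0.16 on the log2(CPM + 1) scale and -2.56 by edgeR. With a pseudocount of 0.1 the difference was -2.60 and was not called.

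Stimulated *IDO1* stood at 507.5 and 516.4 CPM in siNC cells, 243 and 233 CPM in siPDL1-1 cells and 237 and 244 CPM in siPDL1-2 cells, so the siNC libraries were the highest. Its difference in response on the log2(CPM + 1) scale was 0.92 ± 0.10 and 1.00 ± 0.10, and neither held in the read-based tests: with 4 and 4 unstimulated reads in siNC cells and 0 and 1 in siPDL1-1 cells, edgeR gave -1.98 against siPDL1-1 (FDR 0.39) and 0.35 against siPDL1-2 (FDR 0.79). The order is therefore one of stimulated levels. With so few unstimulated reads, the order of the fold changes could not be determined. Stimulated *CXCL11* had the same order, with 61.7 and 67.2 CPM in siNC, 25.0 and 32.5 CPM in siPDL1-1 and 17.2 and 15.6 CPM in siPDL1-2 cells, and its differences in response (1.16 ± 0.17 and 1.89 ± 0.17) likewise were not called by edgeR (1.69, FDR 0.78, and -0.54, FDR 0.72). The response of *CXCL10* differed from that of siPDL1-2 cells by 2.05 ± 0.12, with 69.7 and 72.5 CPM there, a difference edgeR did not call (1.74), and was not called against siPDL1-1 (0.34 ± 0.12). *CD274*, the gene the siRNAs target, stood at 2.67 and 2.73 CPM without IFNγ in siPDL1-1 cells and at 3.57 and 3.45 CPM in siPDL1-2 cells, below the siNC libraries. After IFNγ it reached 60.9 and 66.7 CPM in siPDL1-1 and 37.5 and 35.0 CPM in siPDL1-2 cells. Its response differed from that of siPDL1-2 cells (0.65 ± 0.11), a difference called neither with the GC and length trends removed nor by edgeR (0.55), and was not called against siPDL1-1 (-0.43 ± 0.11). The decrease of *CCN2* was larger in siNC cells than with either siRNA (differences -0.996 ± 0.10 and -0.92 ± 0.10), where it already stood at 21.2 and 19.2 CPM (siPDL1-1) and 12.8 and 13.0 CPM (siPDL1-2) before IFNγ, against 40.2 and 40.7 CPM in siNC cells.

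**Figure D5:**
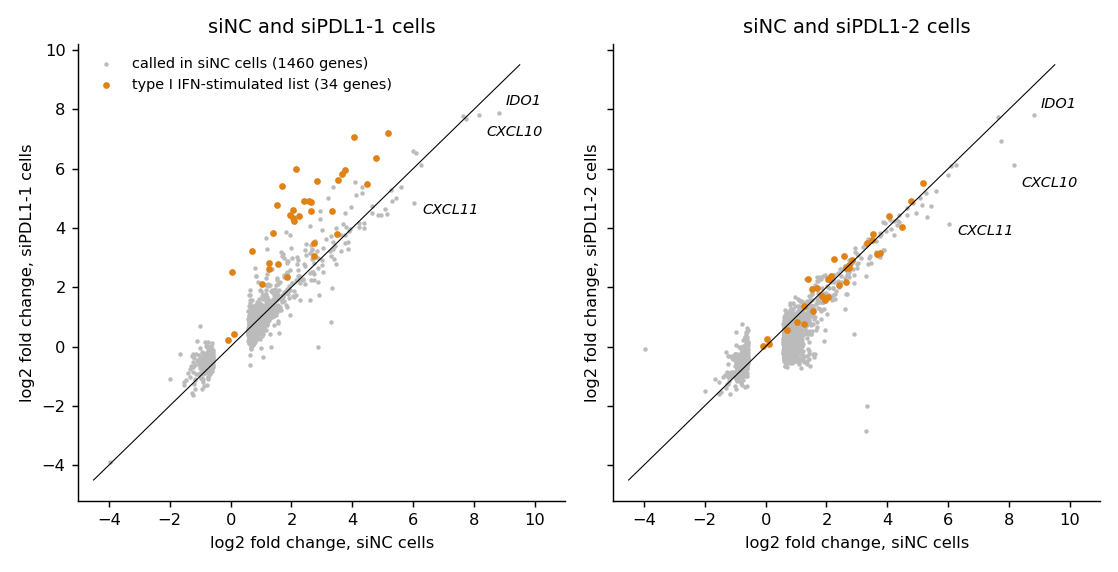
Log2 fold change after IFNγ in siNC cells on the x axis against that in siPDL1-1 cells (left) or siPDL1-2 cells (right) on the y axis, for the 1460 genes called in siNC cells (grey) and the 34 genes of the type I IFN list (orange), with the line of equal response. Most orange points lie above the line in the left panel and along it in the right panel.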

How the data were processed

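RNA-seq of 12 U251 libraries was analysed, 2 for each of 6 groups taken from the sample labels, and the comparison described is siNC with against without IFNγ. According to the methods, the authors used CLC Genomics Workbench 22.0.2 to trim reads, align them against GRCh38 (Ensembl genes) and count them regardless of strand. What they deposited is a signal per gene, CPM scaled between libraries. Dividing each value by the smallest step of its library gave whole reads for 100% of values (tolerance 0.02 reads), and the scaling equalled edgeR's TMM factors. Depth ranged from 17101069 to 55657393 reads.

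Genes were kept with filterByExpr (minimum count 10, minimum total 15), which left 17982. limma (trend and robust options) was fitted to log2(CPM + 1) over all 12 libraries as 6 groups, with Benjamini-Hochberg adjustment over all tested genes. Contrasts were the siNC response and its difference from each siPDL1 response. With 2 libraries per group, p-values rest on the spread pooled over the groups. Exact 95% intervals of read ratios, and floors of 3 reads, cover counting error only. In a simulation of this contrast with 17668 genes, of which 200 were changed by 1.5 (log2), limma called 194 of the 200 and 0 others. The simulated reads held no trend with GC content or length, and the changed genes had at least 1 CPM. The simulation therefore cannot show how often such a trend gives calls, or how well smaller changes are found. Replicates were checked for duplication and differed by more than sampling noise.

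The gene lists, the members and the rules were chosen with earlier results of these data known, and the lists were written from general knowledge and were not tested as sets. Named are the 20 largest increases and 15 largest decreases (at least 1 CPM, groups not overlapping), members of lists of up to 20 genes and up to 8 called members of longer ones, genes the study names, the 12 largest differences between siRNAs, and overlapping genes. *RBMXL1* was chosen after its values were seen. Some genes the rule names are not reported here. Alternatives were edgeR's quasi-likelihood test and DESeq2 on recovered reads, DESeq2 size factors, library totals, a pseudocount of 0.1, other filters and thresholds, replicate number as a block, leaving out each siNC library, the 4 siNC libraries alone and a promoter window of 100 bases. Chosen after seeing the data were the removal of trends with GC content and length (GENCODE release 44 canonical transcripts, a value for 17922 tested genes) and a crossed block. The extraction kit and instrument in the methods differ from those in the labels.

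Tools were limma 3.58.1, edgeR 4.0.16 and DESeq2 1.42.0 under R 4.3.3, with pandas 2.3.3, numpy 2.4.6, scipy 1.17.1 and matplotlib 3.10.9 under Python 3.11.15.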

Additional observations from a re-analysis of the deposited data

Results flagged for a closer look

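For 51 named genes the IFNγ response differed between siNC cells and cells given an siRNA against PD-L1, by limma's interaction term at the thresholds used throughout (57 differences). Values below are the log2 fold change in siNC cells minus that in the other cells, so a negative value is a smaller increase or a larger decrease in siNC cells. Of the 35 differences from siPDL1-1 cells, 27 were also called by edgeR's quasi-likelihood test on the reads, and of the 22 from siPDL1-2 cells, 14.

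Called by both tests against siPDL1-1 were, among genes of the type I IFN list, *IFI44L* (-2.11), *IFIT1* (-2.49), *IFIT2* (-2.19), *IFIT3* (-1.58), *MX2* (-3.86, or -2.56 by edgeR) and *SAMD9L* (-1.01). Outside that list they were *ADAR* (-0.64), *ANKRD1* (-0.91), *APOL6* (-0.996), *ATF3* (-0.86), *BATF2* (-1.47), *CCN2* (-0.996), *CXCL8* (-1.28), *FAS* (-0.67), *GBP1* (-0.61), *IRF1-AS1* (-0.76), *LGALS9* (-0.95), *LIF* (-0.97), *MLKL* (-0.67), *RGS4* (-1.43), *SAMHD1* (-0.80), *STAT2* (-1.26), *TAP2* (-0.83), *TNFSF10* (-1.81), *TRIB3* (-0.59), *TRIM22* (-1.05) and *USP18* (-2.49). All of the differences from siPDL1-1 cells given here were called again with the GC and length trends removed, except that of *TRIB3* (-0.51). Called by limma alone against siPDL1-1 were *CXCL11* (1.16), *CXCL3* (-0.98), *IDO1* (0.92), *OAS2* (-3.04), *OASL* (-2.15), *SERPING1* (-0.75), *SOCS1* (-1.46) and *XAF1* (-2.01); these genes were near 0 or low in unstimulated cells.

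Called by both tests against siPDL1-2 were *CCN2* (-0.92), *GFAP* (0.71), *LIF* (-0.75), *PSMB8-AS1* (0.66) and *SOD2* (0.64), which were also called with the GC and length trends removed, and *BIRC3* (0.79), *CD47* (0.88), *GBP3* (0.65), *GBP5* (0.70), *IFIT2* (0.59), *JAK2* (0.93), *SLC3A2* (-0.66), *TRIB3* (-0.63) and *VCAM1* (0.91), which were not. Called by limma alone against siPDL1-2 were *AL035078.4* (-3.89), *CXCL10* (2.05), *CXCL11* (1.89), *CXCL9* (0.95) and *IDO1* (0.998), called again with the trends removed, and *CD274* (0.65), *GBP4* (0.80) and *LIPA* (0.60), not called again. The part of base composition in these differences was not tested.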

How the results depend on the processing

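Of 146 named genes called in siNC cells, 131 were called in every setting in which they were tested, and no called response of a named gene changed sign. The number of genes called higher was 731 with the GC and length trends removed (734 with the replicate block as well), 416 at a fold change above 2 and 3222 with no fold threshold. Genes called lower numbered 473 by edgeR's quasi-likelihood test, 491 with DESeq2 size factors, 648 with library totals, 391 with a pseudocount of 0.1, 37 at a fold change above 2 and 1679 with no fold threshold. Both directions together gave 453 at a fold change above 2 and 4901 with none. Leaving out each siNC library in turn gave 1065 to 1199 genes higher and 203 to 414 lower, the last without stimulated replicate 1. The calls of 6 named genes near the threshold of fold or of adjusted p were lost when 1 library was left out: *CDKN1B* without unstimulated replicate 1 (0.57) or stimulated replicate 1 (0.56), *GBP6* without unstimulated replicate 2 (0.74) or stimulated replicate 1 (0.65), *GFAP* without unstimulated replicate 2 (-0.58) or stimulated replicate 2 (-0.58), *IL6* without unstimulated replicate 2 (0.61), *SESN2* without unstimulated replicate 2 (-0.53) or stimulated replicate 2 (-0.53) and *THBS2* without stimulated replicate 2 (-0.55), while *IRF3* became called without stimulated replicate 2 (0.59). With library totals, *CDKN1B* (0.56), *CX3CL1* (0.56), *RCN1* (0.58) and *SOX2* (0.57) were not called. In the 4 siNC libraries alone with the replicate block, *GFAP* (-0.62) was not called. Differences from siPDL1-2 cells fell to 248 with the GC and length trends removed (255 with the replicate block). Of these differences, the smaller responses in siNC cells numbered 512 with DESeq2 size factors. Within 100 bases before the start, GAS and ISRE letters were present in 8.55% and 19.7% of windows of genes that rose over 4-fold, a shorter window holding fewer matches.

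Differences in response of 3 genes near 0 without IFNγ reversed on reads. *IDO1* against siPDL1-1 was -1.98 (edgeR), -2.29 (DESeq2), -1.98 (DESeq2 size factors), -1.96 (library totals) and -0.029 (pseudocount 0.1). *XAF1* against siPDL1-1 was 0.73, 0.93, 0.73 and 0.75 in the first 4 of these. *CXCL11* against siPDL1-2 was -0.54 (edgeR), -0.54 (DESeq2 size factors) and -0.59 (library totals).

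With the replicate number as a block 1206 genes rose and 261 fell. The numbers share only a label: deviations of same-numbered libraries correlated between -0.19 and 0.25 over the pairs of groups, -0.19 for the siNC groups. Within the 4 siNC libraries, the block gave 1129 and 206 calls and the crossed pairing, added after seeing the data, 1228 and 286. For genes with no unstimulated read, the depth allows only a lower bound of the fold change.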
